A study of Mus musculus with 217 samples.

Results

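Of the 52550 gene identifiers in the count tables, 10 genes of the circadian clock were followed in the translatome of endothelial cells (ECs) of the mouse brain, lung and heart before and after lipopolysaccharide (LPS). They were chosen by name for their place in the clock and not for a measured value: Arntl, Clock, Per1, Per2, Per3, Cry1, Nr1d1, Nr1d2, Dbp and Tef. All mice were adult RiboTagEC animals on a C57BL/6J background (Cdh5CreERT2/+; Rpl22HA/+), in which tamoxifen (5 mg by gavage, 4 doses on alternate days from 4 to 6 weeks of age) turns on an HA-tagged ribosomal protein in cells that use the Cdh5 promoter, so that RNA on the ribosomes of ECs can be pulled down from a whole organ. Mice received a single intraperitoneal dose of 10 mg/kg LPS, the outer-membrane component of Gram-negative bacteria that is used to model systemic inflammation, and organs were taken at 6, 24, 48, 72 and 168 hr, while the 0 hr mice carried the same alleles, had the same tamoxifen, and were controls given PBS. Of 98 libraries, 80 were used, because 18 had less than 3% of their reads on genes.

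The clock is a loop of transcription factors that most cells run with a period of about a day. Arntl (also called Bmal1) and Clock pair up and drive the Per, Cry, Nr1d, Dbp and Tef genes through E-box sequences. PER and CRY proteins block that pair, NR1D1 and NR1D2 (the REV-ERBs) repress Arntl through ROR elements, and DBP and TEF, with their repressive relative NFIL3, act on D-box sequences in output genes and in the Per genes. In ECs the clock is known to pace vascular tone, clotting factors and the entry of leukocytes into tissues.

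The promoters of 9 of the 10 genes could be taken from RefSeq (assembly GRCm38.p6, 250 bases before to 50 bases after each start, 14 promoters), and Per2 was not matched. The windows were searched on both strands for the E-box CACGTG, the E'-box CACGTT, the D-box TTANGTAA and the ROR element TAGGTCA, which stand in 7.15%, 4.68%, 2.32% and 2.61% of all 32851 promoters of this length. The 4 windows printed here each hold a match to a different element, with the matching letters in capitals, since these elements are the textbook links of the loop. The first is Arntl at chr7:113207261-113207560 on the plus strand with a ROR element. The second is Nr1d1 at chr11:98775328-98775627 on the minus strand with an E'-box, written here on its other strand. The third is Per3 at chr4:151044616-151044915 on the minus strand with 2 D-boxes. The fourth is Tef at chr15:81802423-81802722 on the plus strand with an E-box.
Arntl promoter: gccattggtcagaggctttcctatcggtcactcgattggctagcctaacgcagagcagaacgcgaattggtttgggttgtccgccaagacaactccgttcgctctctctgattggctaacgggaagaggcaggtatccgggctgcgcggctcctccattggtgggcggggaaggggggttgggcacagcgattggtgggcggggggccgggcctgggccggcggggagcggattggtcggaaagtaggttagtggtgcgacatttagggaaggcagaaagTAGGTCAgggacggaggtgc
Nr1d1 promoter: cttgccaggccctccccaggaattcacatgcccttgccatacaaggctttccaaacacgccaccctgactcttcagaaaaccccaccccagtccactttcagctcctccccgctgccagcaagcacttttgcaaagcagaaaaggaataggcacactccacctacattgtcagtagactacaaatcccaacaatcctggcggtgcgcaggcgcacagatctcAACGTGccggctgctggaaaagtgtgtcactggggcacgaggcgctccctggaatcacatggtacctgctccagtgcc
Per3 promoter: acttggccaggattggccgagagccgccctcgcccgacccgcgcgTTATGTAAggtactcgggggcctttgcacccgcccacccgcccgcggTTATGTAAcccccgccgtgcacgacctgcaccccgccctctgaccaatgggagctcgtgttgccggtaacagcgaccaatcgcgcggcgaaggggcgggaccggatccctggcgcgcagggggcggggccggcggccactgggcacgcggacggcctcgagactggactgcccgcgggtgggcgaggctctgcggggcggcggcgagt
Tef promoter: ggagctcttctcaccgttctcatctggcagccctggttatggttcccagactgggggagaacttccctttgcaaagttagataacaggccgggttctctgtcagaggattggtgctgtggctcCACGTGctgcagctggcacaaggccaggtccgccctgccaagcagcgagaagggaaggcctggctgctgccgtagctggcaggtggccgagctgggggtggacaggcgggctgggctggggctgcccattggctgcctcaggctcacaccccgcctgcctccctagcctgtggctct
Of the other windows, 1 of the 2 of Per1 and the second of Tef held an E-box, and that of Cry1 held an E-box and an E'-box. The windows of Dbp, Nr1d2 and Clock and the other window of Arntl held none of these letters, so 7 of 14 windows had no match. A match is a match of letters and not a measured binding site, and the 4 elements can occur outside these windows.

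Levels are given as CPM, a gene's share of the reads on genes in parts per 1000000 after TMM scaling. Differences are log2 fold changes against 0 hr from edgeR's quasi-likelihood test with the standard error (SE), and a change was called at a Benjamini-Hochberg adjusted p (over all genes tested in that tissue) under 0.05. Brain and heart had 5, 5, 4, 6, 4 and 4 libraries at 0, 6, 24, 48, 72 and 168 hr, and lung had 4, 4, 2, 6, 4 and 4. Reads on genes ranged from 7226796 to 32891759 in brain, from 8136031 to 33050750 in heart and from 284457 to 43417945 in lung. The tissue was checked by 12 EC markers, all detected in every group, whose summed level was 1829 to 4574 CPM in brain, 2231 to 17340.0 CPM in lung and 6327 to 15187 CPM in heart. Other cells contributed as well, with sums over 8 markers each of 504 to 6982 CPM for neurons and 843 to 7652 CPM for glia in brain, 2500.4 to 7876 CPM for cardiomyocytes in heart and 281 to 24591 CPM for epithelium in lung. In such bulk samples fewer cells of a type and less RNA per cell cannot be told apart, and a change cannot be placed in ECs alone.

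In all, 3 libraries went against their labels by Saa3, Icam1 and Cxcl1, genes that LPS induces. Saa3, an acute-phase protein, was at 1321 to 1453 CPM in 4 brain libraries at 6 hr and at 1.07 CPM in the library labelled brain 6 hr replicate 6, against 0.079 to 1.63 CPM at 0 hr. It was at 776 to 1224 CPM in 4 heart libraries at 6 hr and at 0.986 CPM in the library labelled heart 6 hr replicate 5. At 72 hr it was at 65.9 to 124 CPM in 3 heart libraries and at 0.653 CPM in the library labelled heart 72 hr replicate 1. Lcn2, another gene that LPS induces, was at 287 CPM in brain 6 hr replicate 6, against 5.42 to 36.9 CPM at 0 hr. It was at 48.1 CPM in heart 6 hr replicate 5, against 7.52 to 19.4 CPM at 0 hr. Both libraries thus lay above 0 hr in Lcn2 but below the other 6 hr libraries of their tissue. Whether they had received LPS was not tested. In addition, lung 6 hr replicate 4 held only 284457 reads on genes, and 8 of the 10 clock genes had no count in it. The results below include all 4 libraries, and values without the 3 are given where they bear on a result. The clock time of injection and of harvest is not given in the sources used here. Times of 24 to 168 hr are whole days after 0 hr, whereas at 6 hr the effect of LPS and that of 6 hr of clock time cannot be told apart.

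**Figure D1:**
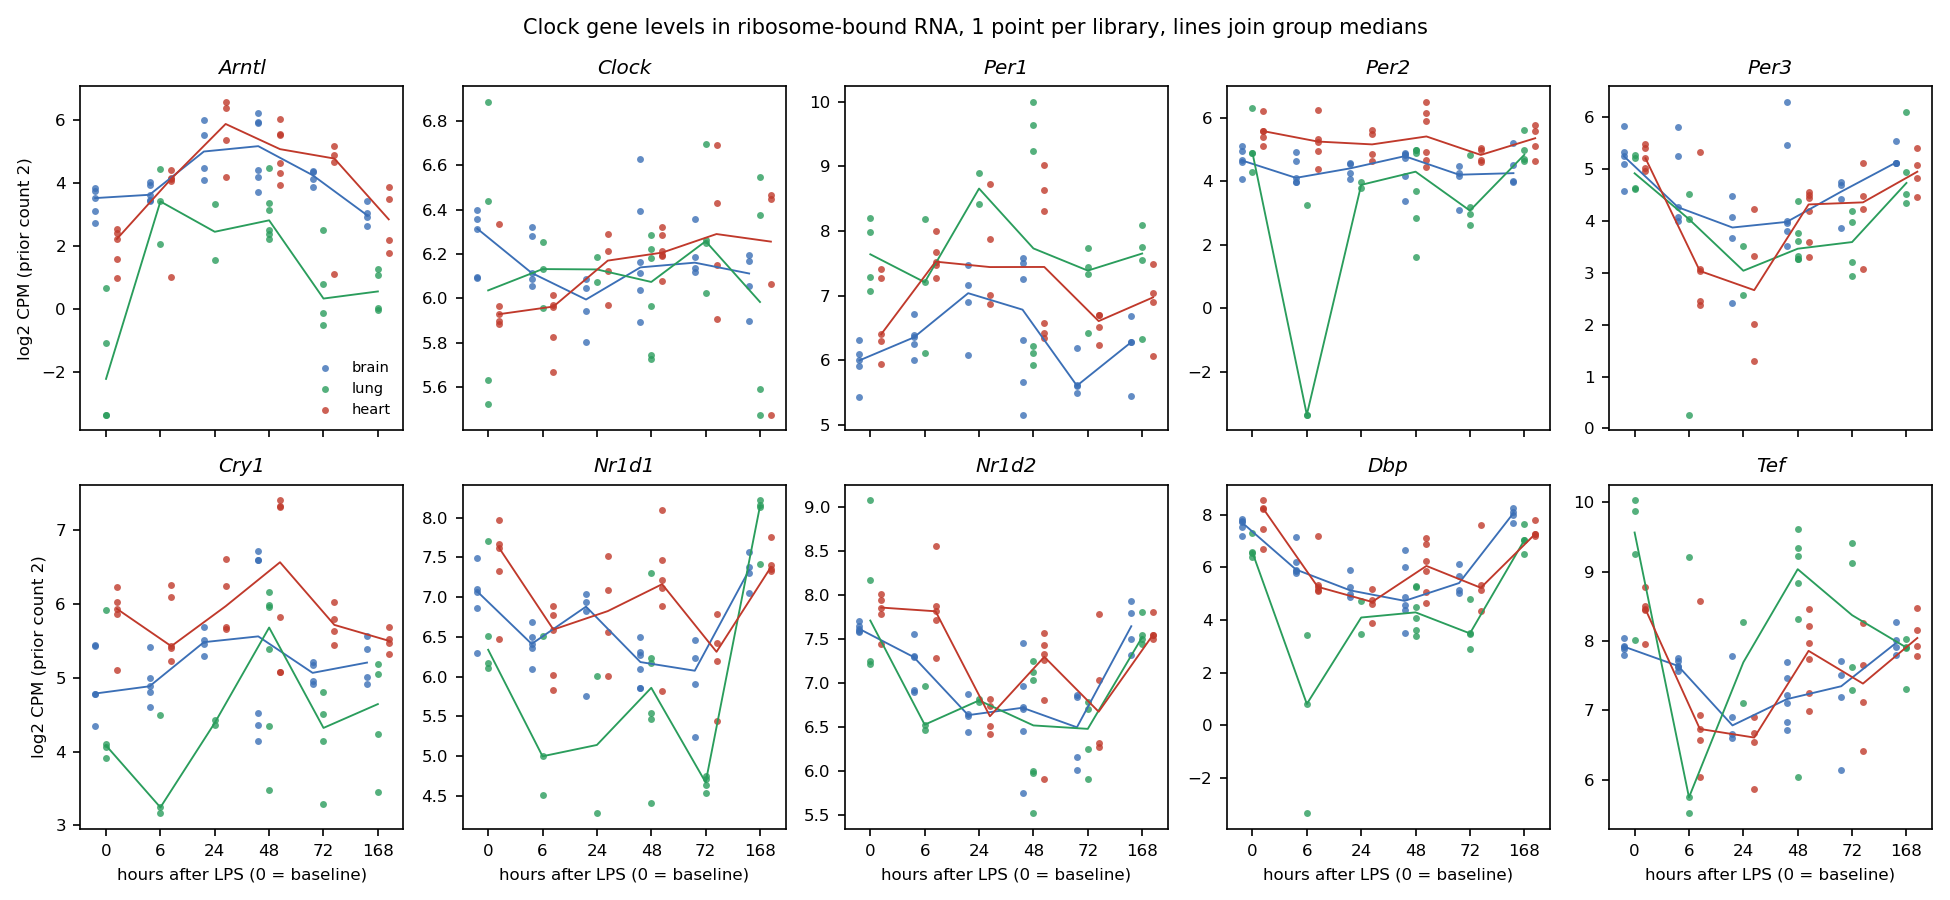
Log2 CPM of the 10 clock genes, 1 panel a gene, by hours after LPS (evenly spaced, not to scale), with a point for each library, a color for each tissue and lines through group medians. Lung 6 hr replicate 4 is not drawn. Dbp lay below its 0 hr libraries from 24 to 72 hr in all brain and lung libraries and in 11 of 14 heart libraries, and was back among or above them at 168 hr, while Clock was called at no time.

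Dbp, a D-box activator and one of the clock's most strongly cycling outputs, fell in the brain libraries at 6, 24, 48 and 72 hr. It stood at 148, 220.4, 229.6, 185 and 211 CPM in the 5 brain libraries at 0 hr and at 72.9, 58.2, 60.5 and 54.9 CPM in 4 libraries at 6 hr, with 141 CPM in the library labelled 6 hr replicate 6. At 24 hr it was at 31.5, 60.4, 38.6 and 29.0 CPM, and at 72 hr at 69.2, 51.6, 32.6 and 34.8 CPM. The 6 libraries at 48 hr ran from 11.3 to 101 CPM with a median of 26.6 CPM. No library from 6 to 72 hr overlapped with 0 hr. At 168 hr the 4 libraries were at 205, 257, 279 and 303 CPM, and 3 of them lay above every 0 hr library. The log2 fold change was -1.37 (SE 0.36, edgeR adjusted p = 0.0198) at 6 hr, -2.04 (SE 0.43, adjusted p = 0.00381) at 24 hr, -2.15 (SE 0.36, adjusted p = 0.00052) at 48 hr and -1.999 (SE 0.41, adjusted p = 0.00425) at 72 hr. At 168 hr it was 0.83 (SE 0.42, adjusted p = 0.903). Without the library labelled 6 hr replicate 6, the 6 hr value was -2.13 (SE 0.31, edgeR adjusted p = 2.35e-05). The 6 hr call was lost when 0 hr replicate 2 or any of 6 hr replicates 1 to 4 was left out, with an adjusted p of up to 0.0655.

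In the heart libraries Dbp fell at 6 and 24 hr. It stood at 104, 305, 376, 178 and 301 CPM at 0 hr and at 38.3, 34.6, 40.0 and 35.0 CPM in 4 libraries at 6 hr, with 147 CPM in the library labelled 6 hr replicate 5. The 24 hr libraries were at 35.8, 27.1, 14.9 and 24.4 CPM, all below every 0 hr library. At 48 hr the libraries ran from 25.1 to 139 CPM with a median of 67.2 CPM, and 2 of them overlapped with 0 hr. At 72 hr they were at 40.1, 34.8 and 20.2 CPM, with 198 CPM in the library labelled 72 hr replicate 1, and at 168 hr at 222, 155, 147 and 155 CPM. The log2 fold change was -2.08 (SE 0.53, edgeR adjusted p = 0.00427) at 6 hr and -2.89 (SE 0.64, adjusted p = 0.00579) at 24 hr. It was -1.51 (SE 0.52, adjusted p = 0.0943) at 48 hr, -1.74 (SE 0.57, adjusted p = 0.334) at 72 hr and -0.03 (SE 0.61, adjusted p = 0.999) at 168 hr. Without the 2 heart libraries that went against their labels, Dbp fell at all 4 times from 6 to 72 hr, by log2 values of -3.03 (edgeR adjusted p = 3.25e-07), -2.90 (adjusted p = 9.81e-06), -1.56 (adjusted p = 0.00153) and -2.73 (adjusted p = 0.000195).

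In the lung libraries Dbp fell at 6 hr and had low levels to 72 hr that did not pass the test. It stood at 96.0, 93.7, 85.4 and 158 CPM at 0 hr. At 6 hr it was at 1.65, 0 and 10.6 CPM in 3 libraries, and at 56.2 CPM, from 2 reads, in replicate 4. The 2 libraries at 24 hr were at 11.1 and 26.1 CPM, those at 48 hr ran from 10.4 to 39.7 CPM with a median of 19.7 CPM, and those at 72 hr were at 27.9, 11.2, 11.1 and 7.38 CPM. All 12 libraries from 24 to 72 hr lay below every 0 hr library. At 168 hr the levels were 132, 203, 92.2 and 130.3 CPM, which overlapped with 0 hr. The log2 fold change was -4.35 (SE 0.88, edgeR adjusted p = 0.00484) at 6 hr, -2.17 (SE 0.95, adjusted p = 0.716) at 24 hr, -2.22 (SE 0.63, adjusted p = 0.105) at 48 hr, -2.88 (SE 0.71, adjusted p = 0.0872) at 72 hr and 0.62 (SE 0.69, adjusted p = 1) at 168 hr. By DESeq2 the values at 48 and 72 hr were -2.15 (adjusted p = 0.00509) and -2.87 (adjusted p = 0.000168), and by edgeR on the libraries with at least 10% of reads on genes, a choice made after seeing the data, -2.43 (adjusted p = 0.00657) and -3.05 (adjusted p = 0.00228). EC markers summed to 10372 to 17340.0 CPM at 0 hr and to 2231 to 10121 CPM at 6 hr in lung, and leukocyte markers to 40.8 to 226 CPM at 0 hr and 1295 to 2789 CPM at 24 hr. Their part in the result was not tested.

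Tef, the second D-box activator among the 10 genes, fell in heart at 6 and 24 hr. Its heart levels were 248, 348, 439, 363 and 351 CPM at 0 hr, 122, 65.4, 106 and 95.1 CPM in 4 libraries at 6 hr with 380.4 CPM in the library labelled replicate 5, and 119, 102, 58.1 and 93.4 CPM at 24 hr. The log2 fold change was -1.24 (SE 0.38, edgeR adjusted p = 0.0115) at 6 hr and -1.79 (SE 0.44, adjusted p = 0.0106) at 24 hr. Leaving out heart 24 hr replicate 2 brought the 24 hr adjusted p to 0.0512. In brain, Tef was at 223 to 262 CPM at 0 hr and below that in all 14 libraries from 24 to 72 hr, with log2 values of -0.58 (adjusted p = 0.065), -0.45 (adjusted p = 0.0891) and -0.60 (adjusted p = 0.0945) that did not pass the test. In lung it ranged from 259 to 1044 CPM at 0 hr and from 28.1 to 592 CPM at 6 hr, with a log2 value of -2.34 (SE 0.79, adjusted p = 0.0752).

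Arntl, the activator that drives these outputs, moved the other way. In heart its level was 4.54, 5.23, 2.9, 5.63 and 1.87 CPM at 0 hr, and 17.3, 17.7, 16.4 and 21.0 CPM in 4 libraries at 6 hr, with 1.91 CPM in the library labelled 6 hr replicate 5. At 24 hr it was at 18.2, 41.1, 81.6 and 94.6 CPM, and at 48 hr it ran from 15.0 to 64.1 CPM with a median of 34.9 CPM, so that no library at 24 or 48 hr overlapped with 0 hr. At 72 hr it was at 29.0, 25.2 and 35.6 CPM with 2.06 CPM in the library labelled replicate 1, and at 168 hr at 3.3, 4.48, 14.6 and 11.1 CPM. Arntl rose by a log2 fold change of 1.89 (SE 0.57, edgeR adjusted p = 0.0109) at 6 hr, 3.00 (SE 0.60, adjusted p = 0.00322) at 24 hr and 2.62 (SE 0.55, adjusted p = 0.00682) at 48 hr. The 48 hr call was lost by limma-voom (adjusted p = 0.0557). At 72 hr the value was 2.13 (SE 0.56, adjusted p = 0.112), and it was 2.52 (SE 0.35, adjusted p = 7.82e-05) without the 2 libraries that went against their labels. At 168 hr it was 0.19 (SE 0.63, adjusted p = 0.997).

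In brain, Arntl rose at 24 and 48 hr and was not called at 6 hr. The levels were 6.52, 11.3, 14.1, 8.54 and 13.2 CPM at 0 hr, 10.8, 15.0, 12.2, 16.1 and 10.6 CPM at 6 hr, and 16.9, 22.0, 45.4 and 63.3 CPM at 24 hr. At 48 hr they ran from 13.0 to 72.9 CPM with a median of 40.4 CPM, at 72 hr they were 14.5, 17.3, 20.3 and 20.5 CPM, and at 168 hr 10.6, 7.37, 8.12 and 6.09 CPM. All libraries at 24 and 72 hr, and 5 of 6 at 48 hr, lay above every 0 hr library. The log2 fold change was 0.32 (SE 0.36, edgeR adjusted p = 0.722) at 6 hr, 1.32 (SE 0.42, adjusted p = 0.0446) at 24 hr, 1.64 (SE 0.38, adjusted p = 0.00705) at 48 hr, 0.60 (SE 0.39, adjusted p = 0.481) at 72 hr and -0.84 (SE 0.44, adjusted p = 0.903) at 168 hr. The 24 hr call was lost by limma-voom (adjusted p = 0.073) and in 12 of the 28 edgeR fits that left out 1 brain library, with an adjusted p of up to 0.103.

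In lung, Arntl was nearly absent at 0 hr, at 1.47, 0, 0 and 0.374 CPM from 5, 0, 0 and 5 reads. At 6 hr it was at 10.5, 21.5 and 4.02 CPM in 3 libraries, from 19, 17 and 123 reads, and had no read in replicate 4. The 24 hr libraries were at 2.83 and 10.00 CPM, the 48 hr libraries ran from 4.56 to 21.9 CPM with a median of 7.06 CPM, and those at 72 hr were at 0.599, 1.61, 0.822 and 5.58 CPM. At 168 hr they were at 0.878, 0.932, 1.99 and 2.3 CPM. Arntl rose at 6 hr by a log2 fold change of 5.68 (SE 1.31, edgeR adjusted p = 0.0109), a size that rests on the few reads at 0 hr. The call was lost without 0 hr replicate 2 or 3, the libraries with no read, at an adjusted p of up to 0.067. It was also lost on the libraries with at least 10% of reads on genes. At 48 hr the value was 4.34 (SE 1.09, adjusted p = 0.0593) and none of the 10 genes passed edgeR's test there. All 6 libraries at 48 hr lay above every 0 hr library. Arntl at 48 hr was called by DESeq2 (log2 4.51, adjusted p = 4.0e-05) and by limma-voom (log2 5.18, adjusted p = 0.00272). It was also called by edgeR with no low-count filter (log2 4.32, adjusted p = 0.0174), but not with RLE scaling.

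Clock, the partner of Arntl, was not called in any tissue at any time. Its level ranged from 55.8 to 99.0 CPM over all brain libraries, from 44.4 to 103 CPM over all heart libraries and from 44.4 to 118 CPM over the lung libraries other than 6 hr replicate 4, where it had no read. The largest fitted difference was a log2 value of -0.54 (SE 0.52, edgeR adjusted p = 0.554) in lung at 6 hr.

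**Figure D2:**
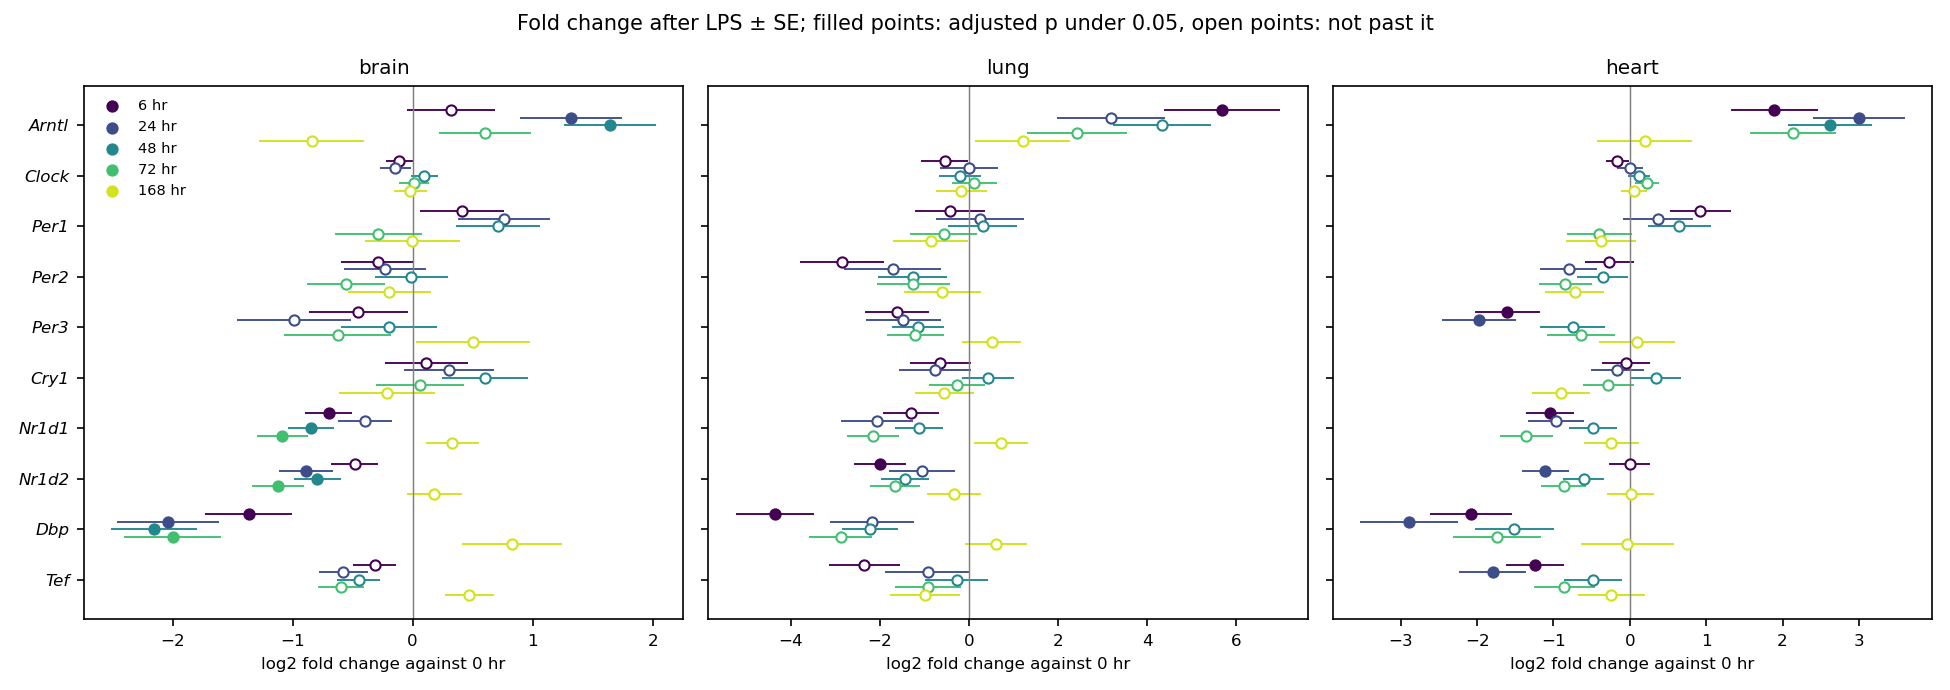
Log2 fold change against 0 hr (edgeR, bars are SE, horizontal scales differ) of the 10 clock genes at each time in brain, lung and heart, with filled points for an adjusted p under 0.05. Arntl stands above 0 and Dbp below 0 from 24 to 72 hr in each tissue, and at 168 hr no gene is called.

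Nr1d1 and Nr1d2, the repressors of Arntl, fell in brain. Nr1d2 was steady at 0 hr in brain, at 196, 192, 201, 193 and 208 CPM, and stood at 157, 189, 119, 121 and 159 CPM at 6 hr and at 98.8, 117, 100.4 and 87.1 CPM at 24 hr. At 48 hr it ran from 54.0 to 176 CPM with a median of 106 CPM, and at 72 hr it was at 117, 114, 64.5 and 71.5 CPM. No brain library from 6 to 72 hr reached the lowest 0 hr library, whereas those at 168 hr were at 161, 181, 223 and 245 CPM. The log2 fold change was -0.48 (SE 0.20, edgeR adjusted p = 0.17) at 6 hr, -0.89 (SE 0.22, adjusted p = 0.0133) at 24 hr, -0.79 (SE 0.19, adjusted p = 0.00958) at 48 hr and -1.12 (SE 0.22, adjusted p = 0.00247) at 72 hr. Without the library labelled 6 hr replicate 6, the 6 hr value was -0.66 (SE 0.21, adjusted p = 0.0374).

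Nr1d1 varied more among the 0 hr libraries of brain, at 78.6, 179, 134, 117 and 138 CPM. It was at 103, 81.8, 90.4, 85.0 and 68.3 CPM at 6 hr and at 53.7, 123, 113 and 131 CPM at 24 hr. The 48 hr libraries ran from 57.7 to 90.6 CPM with a median of 72.7 CPM, and the 72 hr libraries were at 87.7, 60.0, 37.5 and 75.5 CPM. Nr1d1 fell at 6 hr (log2 -0.70, SE 0.20, edgeR adjusted p = 0.031), 48 hr (log2 -0.85, SE 0.19, adjusted p = 0.00565) and 72 hr (log2 -1.08, SE 0.21, adjusted p = 0.00331) and was not called at 24 hr (log2 -0.40, SE 0.22, adjusted p = 0.252). The groups overlapped at 6, 48 and 72 hr, and the 6 hr call was lost in 13 of the 28 fits that left out 1 brain library, with an adjusted p of up to 0.11. On the genome, 263 of its exon bases (8.55%) overlap with exons of Thra on the other strand, and counting by strand is not stated.

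In heart, Nr1d1 fell at 6 hr and Nr1d2 at 24 hr. Nr1d1 was at 88.5, 252, 204, 161 and 197 CPM at 0 hr and at 109, 96.4, 56.9, 65.1 and 119 CPM at 6 hr, a log2 fold change of -1.05 (SE 0.31, edgeR adjusted p = 0.0111). Nr1d2 was at 175, 247, 259, 232 and 220.5 CPM at 0 hr and at 85.7, 113, 91.3 and 107 CPM at 24 hr, without overlap, a log2 fold change of -1.11 (SE 0.31, adjusted p = 0.0214) that was lost without 0 hr replicate 2 or 24 hr replicate 1 or 2 (adjusted p of up to 0.0983). At 6 hr Nr1d2 was at 377, 226, 211, 157 and 236 CPM in heart, a log2 value of 0.00 (SE 0.27, adjusted p = 0.997). In lung, Nr1d2 was at 152, 289, 541 and 149 CPM at 0 hr and at 88.8, 92.3, 126 and 0 CPM at 6 hr. It fell by 1.99 on the log2 scale (SE 0.58, adjusted p = 0.042), and that call was lost under 8 of 10 other settings and in 15 of the 24 fits that left out 1 lung library, among them the one without 6 hr replicate 4. Nr1d1 in lung was at 68.6, 71.9, 90.7 and 208 CPM at 0 hr and at 26.9, 23.1, 24.7 and 26.0 CPM at 72 hr, without overlap, and the log2 value of -2.15 (SE 0.59, adjusted p = 0.165) did not pass edgeR's test.

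Among the Per genes and Cry1, the repressors of the activator pair, Per3 was the one called. In heart Per3 was at 42.2, 36.7, 44.5, 32.2 and 31.2 CPM at 0 hr, at 8.3, 5.09, 5.35 and 8.09 CPM in 4 libraries at 6 hr with 39.8 CPM in the library labelled replicate 5, and at 18.6, 9.89, 3.92 and 2.37 CPM at 24 hr. It fell by 1.60 on the log2 scale at 6 hr (SE 0.43, edgeR adjusted p = 0.00529) and by 1.97 at 24 hr (SE 0.49, adjusted p = 0.0111). In lung Per3 was at 24.5, 38.4, 24.5 and 36.7 CPM at 0 hr, and all 12 libraries from 24 to 72 hr were lower, at 5.8 to 20.7 CPM, while no time passed the test. In brain 10 of 14 libraries from 24 to 72 hr were below 0 hr and 1 was above, and the lowest adjusted p was 0.177, at 24 hr.

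Per1, an immediate-early responder among clock genes, was at 171, 78.6, 155, 61.8 and 84.7 CPM at 0 hr in heart and at 255, 205, 185 and 178 CPM in 4 libraries at 6 hr, with 154 CPM in the library labelled replicate 5. The log2 value was 0.92 (SE 0.40, edgeR adjusted p = 0.0669), and without the 2 libraries that went against their labels Per1 rose by 1.15 (SE 0.41, adjusted p = 0.0194). Per2 was not called in any tissue. It was at 29.5, 29.8, 19.5 and 79.5 CPM at 0 hr in lung and had reads in 1 of 4 libraries at 6 hr, at 9.45 CPM (log2 -2.84, SE 0.94, adjusted p = 0.072). Cry1 was not called either, and its group ranges were 20.3 to 43.3 CPM at 0 hr and 24.3 to 42.8 CPM at 6 hr in brain.

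At 24 hr Per1 was above every 0 hr library of its tissue in 3 of 4 brain libraries, both lung libraries and 2 of 4 heart libraries, and it was called in none. In brain Per1 was at 80.0, 60.3, 64.0, 43.1 and 68.9 CPM at 0 hr and at 68.1, 120.3, 144 and 179 CPM at 24 hr (log2 0.76, SE 0.39, edgeR adjusted p = 0.202). In heart the 24 hr levels were 128, 117, 236 and 422 CPM (log2 0.37, SE 0.46, adjusted p = 0.582). The fit includes the library series, so these log2 values are not the plain ratios of the levels. Per2 in heart was at 48.2, 47.8, 73.6, 41.9 and 34.3 CPM at 0 hr and at 31.8, 33.1, 24.4 and 25.3 CPM at 72 hr, without overlap, and was not called (log2 -0.84, SE 0.35, adjusted p = 0.671, and 0.197 without the 2 heart libraries that went against their labels). Cry1 in heart was at 65.2, 60.9, 74.6, 57.9 and 34.3 CPM at 0 hr and at 39.8, 46.0, 44.3 and 51.3 CPM at 168 hr, where the groups overlapped through 0 hr replicate 5.

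At 48 hr Per1 and Cry1 were spread widely within each tissue, and the same replicate numbers were high in each. Per1 was at 182, 153 and 191 CPM in replicates 3, 6 and 7 of brain, at 802, 604 and 1026 CPM in those of lung and at 399, 318 and 522 CPM in those of heart. In replicates 1, 2 and 4 it was at 50.6, 79.5 and 35.7 CPM in brain, at 69.6, 60.6 and 74.8 CPM in lung and at 81.2, 95.5 and 86.1 CPM in heart. Cry1 was at 96.7, 96.5 and 105 CPM in replicates 3, 6 and 7 of brain and at 20.4, 17.5 and 22.9 CPM in replicates 1, 2 and 4. It was at 159, 159.7 and 169 CPM against 33.7, 33.8 and 56.2 CPM in the same libraries of heart, and at 62.3, 71.6 and 63.2 CPM against 20.3, 11.0 and 41.9 CPM in those of lung. Arntl was also highest in brain and heart in replicates 3, 6 and 7, at 72.9, 60.2 and 59.8 CPM and at 46.6, 64.1 and 45.6 CPM. The libraries were singled out after their values were seen, and their difference was not tested. In each organ replicates 1 and 2, 3 and 4, and 6 and 7 came from different library series, read from file names as described below. Only replicates 3 and 4 differed within a series, and otherwise the split cannot be told apart from series. Lcn2, a gene that LPS induces, was at 23763, 21631 and 25460.0 CPM in replicates 3, 6 and 7 of brain and at 968, 305 and 7601 CPM in replicates 1, 2 and 4. In heart it was at 17116, 18762 and 14946 CPM and at 903, 637 and 3099.7 CPM in the same order, and in lung at 1413, 2002 and 2376 CPM and at 341, 242 and 1830.3 CPM. Whether same-numbered libraries of the 3 organs came from the same mouse is not stated.

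**Figure D3:**
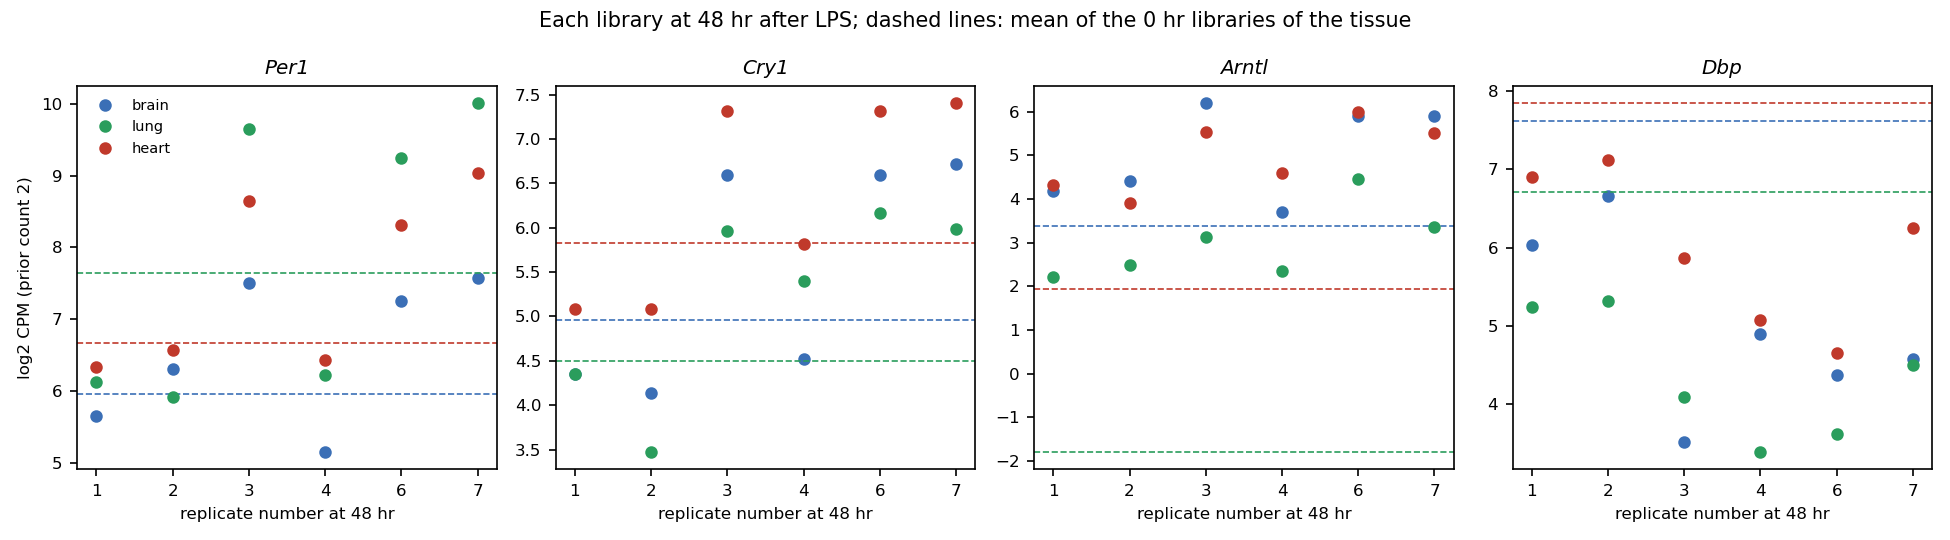
Log2 CPM of Per1, Cry1, Arntl and Dbp in the 6 libraries at 48 hr by replicate number, with a color for each tissue and dashed lines at the mean of the 0 hr libraries of that tissue. In each organ Per1 and Cry1 are higher in replicates 3, 6 and 7 than in replicates 1, 2 and 4. Replicates 1 and 2, 3 and 4, and 6 and 7 are of different library series.

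Counted over the 10 genes, which were all tested in every tissue, the calls stood as follows beside the background of all genes tested (19234 in brain, 17058 in lung, 16024 in heart). In brain 0 rose and 2 fell at 6 hr, against 4.21% and 2.23% of all genes. At 24 hr 1 rose and 2 fell (all genes 6.52% and 4.66%), at 48 hr 1 rose and 3 fell (all genes 8.11% and 6.12%), and at 72 hr 0 rose and 3 fell (all genes 2.98% and 0.546%). In heart 1 rose and 4 fell at 6 hr, when 22.4% of all genes rose and 20.3% fell, and 1 rose and 4 fell at 24 hr (all genes 9.07% and 7.11%). At 48 hr 1 rose and none fell in heart (all genes 3.08% and 1.11%). In lung 1 rose and 2 fell at 6 hr (all genes 2.56% and 2.27%). These counts stand beside the background and are no test of the list. The median log2 value of the 10 genes from 6 to 72 hr was -0.30, -0.31, -0.11 and -0.58 in brain, where that of all genes lay between -0.04 and 0.02. It was -0.22, -0.88, -0.42 and -0.74 in heart, with all genes between -0.05 and 0.00. In lung it was -1.46, -0.99, -0.69 and -1.06, and that of all genes was itself -0.42 at 6 hr and -0.12 at 24 hr.

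No clock gene was called in lung at 24, 48, 72 or 168 hr. By an unadjusted p under 0.05 of the same edgeR fit there were 3, 4, 4 and 0 genes, DESeq2 called 0, 3, 3 and 0, and limma-voom called 0, 2, 1 and 0. All genes tested in lung were called higher and lower in 0.363% and 0.0117% at 24 hr, 0.428% and 0.17% at 48 hr, 0.17% and 0.0234% at 72 hr, and 0% and 0.0117% at 168 hr. In heart none of the 10 was called by edgeR at 72 hr, where all genes were at 0.275% and 0%. There 6 had an unadjusted p under 0.05, DESeq2 called 2 and limma-voom 0. Without the 2 heart libraries that went against their labels, edgeR called 5 of the 10 genes at 72 hr, with 2.27% of all genes higher and 0.64% lower. Arntl rose, and Nr1d1 (log2 -1.65, adjusted p = 0.00829), Nr1d2 (log2 -1.21, adjusted p = 0.0177), Dbp and Tef (log2 -1.20, adjusted p = 0.0277) fell.

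By 168 hr none of the 10 genes was called in any tissue. In each tissue the 168 hr group holds 2 libraries of series 1 and 2 of a series with no 0 hr library, as described below. The lack of a call therefore does not show that levels were back at those of 0 hr. In brain and heart 0% of all genes were called higher and 0% lower at that time by edgeR. In brain 828 genes and 1 of the 10 had an unadjusted p under 0.05, DESeq2 called 2 genes and limma-voom 0, none of them a clock gene listed here. In heart the counts were 680 genes, 1 of the 10, 2 genes and 0. Joined into one mean of 24 to 168 hr, Nr1d2 (log2 -0.66, SE 0.16, edgeR adjusted p = 0.0437) and Dbp (log2 -1.34, SE 0.30, adjusted p = 0.0191) fell in brain, where 1.03% of all genes were higher and 0.255% lower. The Nr1d2 call was lost in 8 of the 28 fits without 1 brain library (adjusted p of up to 0.168), and that of Dbp without 0 hr replicate 1 or 2 (adjusted p of up to 0.0987). In lung no clock gene passed in that mean (all genes 0.0938% and 0.0293%), with 4 at an unadjusted p under 0.05, 1 called by DESeq2 and 0 by limma-voom. In heart none passed edgeR either (all genes 0.325% and 0.0499%), with 7 at an unadjusted p under 0.05, 2 called by DESeq2 and 0 by limma-voom. Without the 2 libraries that went against their labels, 4 of the 10 passed in heart (all genes 2.28% and 0.979%), namely Arntl (log2 2.09), Nr1d2 (log2 -0.75), Dbp (log2 -1.79) and Tef (log2 -0.85).

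The libraries fell into series by the pattern of their file names, which served as a term in every fit. Series 1 and 2 hold both 0 hr and LPS libraries, and within them the called genes kept their direction in 4 of 4 values in brain at 6 hr, 6 of 6 at 24 hr, 8 of 8 at 48 hr and 6 of 6 at 72 hr. In heart 7 of 10 values at 6 hr, 10 of 10 at 24 hr and 2 of 2 at 48 hr had the direction of the fit, and in lung 5 of 6 at 6 hr. The exceptions were all in series 1 at 6 hr, which holds 1 library in each organ, in heart the library labelled replicate 5 and in lung replicate 4. The genes were called in fits to these same libraries, so the shared directions are a description and no separate test. The third series in use has no 0 hr library. At 24 hr series 1 and series 2 hold 1 library each in brain and in heart, so every 24 hr value rests on 1 LPS library. Series 1 also holds 1 library in each organ at 72 hr. For Dbp the log2 CPM minus the mean of 0 hr was -2.52 in series 1 and -1.78 in series 2 in brain at 24 hr, and -2.31 and -3.32 in heart.

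Markers of other cells moved between groups as well. In brain the neuron sum was 1388 to 5498 CPM at 0 hr, 2391 to 6982 CPM at 6 hr and 785 to 5414 CPM at 24 hr. Its median was 3954, 5891, 1196, 1096, 2369 and 1067 CPM at 0, 6, 24, 48, 72 and 168 hr. The median glia sum in brain was 5646, 5883, 1942, 1297, 2612 and 1141 CPM at the same times. These sums are not adjusted for library series. With series in the fit, none of the 8 neuron or 8 glia markers was called in brain at any time. The median log2 value of the neuron markers was 0.26, -0.08, -0.39, -0.35 and 0.12 at 6, 24, 48, 72 and 168 hr. For the glia markers it was 0.19, 0.10, -0.01, -0.20 and 0.29. In heart the EC sum was 12296 to 14241 CPM at 0 hr and 6327 to 14025 CPM at 6 hr, and cardiomyocyte markers summed to 3374 to 6214 CPM and 4339.8 to 7876 CPM. At 24 hr in heart the EC sum was 10641 to 13528 CPM and the cardiomyocyte sum 2500.4 to 3767 CPM, ranges that overlap with those at 0 hr. By the test, 9 of the 12 EC markers fell and 1 rose in heart at 6 hr. Leukocyte markers rose in heart in 4 of the 5 that could be tested at 6 and 48 hr and in 3 of 5 at 24 and 72 hr, and their sum over 8 markers was 1.84 to 5.97 CPM at 0 hr, 2.10 to 63.2 CPM at 6 hr, 11.8 to 34.2 CPM at 24 hr, 16.4 to 57.7 CPM at 48 hr and 5.23 to 27.5 CPM at 72 hr. In brain 4 of 7 rose and 1 fell at 48 hr, when the sum was 49.5 to 212 CPM against 11.8 to 54.3 CPM at 0 hr. The part of these markers in the results was not tested. In lung the epithelial sum was 6785 to 13067 CPM at 0 hr and 281 to 24591 CPM at 6 hr. Of the 8 epithelial markers, 7 had enough reads to be tested in lung. Sftpb, a defining marker, was at 0 in all lung libraries from 6 to 72 hr, though not in all at 0 and 168 hr. It was also at 0 in all brain and heart libraries. Its level at 0 hr is not given here, so no fall can be read from this.

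Whether a tissue responded differently was tested as the difference between 2 tissues' log2 fold changes, over 20744 genes, in a separate joint fit of the 3 tissues at 0, 6 and 24 hr. Its values are therefore not the plain differences of the log2 fold changes from the fits of each tissue. At 6 hr Arntl rose more in lung than in brain, with a brain minus lung difference of -7.08 (SE 1.19, edgeR adjusted p = 0.000936), and more than in heart, with a lung minus heart difference of 5.79 (SE 1.20, adjusted p = 0.00403). Nr1d2 fell more in lung, with a brain minus lung difference of 1.83 (SE 0.47, adjusted p = 0.0149) and a lung minus heart difference of -2.25 (SE 0.46, adjusted p = 0.00403). Of all genes 8.8% differed between brain and lung and 12.7% between lung and heart at 6 hr. The Arntl values rest on 5, 0, 0 and 5 reads in lung at 0 hr. The median difference of all genes at 6 hr was 0.24 for brain minus lung and -0.20 for lung minus heart, and was 0.01 and 0.02 under another scaling (RLE). The Nr1d2 difference between brain and lung was lost under 4 of 11 other settings, namely with no low-count filter (adjusted p = 0.0922), without the series term (0.0955), with the replicate number as a block (0.17) and at 10% or more of reads on genes (0.111), and also without lung 0 hr replicate 3 (0.103).

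No clock gene differed between brain and heart in its response. At 6 hr 0.159% of all genes did, and of the 10 none had an unadjusted p under 0.05 and none was called by DESeq2 or limma-voom. The largest difference in size was that of Per3, 1.37 (SE 0.68, edgeR adjusted p = 0.491). The brain minus heart difference was 0.91 (95% interval from the SE, -0.36 to 2.19) for Dbp and -1.29 (95% interval -2.79 to 0.21) for Arntl, so that differences of these sizes remain within the intervals. At 24 hr none of the 10 genes differed between any pair of tissues, where 0.0241%, 0.0193% and 0.00964% of all genes did for brain and lung, brain and heart, and lung and heart. There 1, 0 and 0 of the 10 had an unadjusted p under 0.05, and DESeq2 and limma-voom called 0. The joint fit took libraries of different organs as independent, so its tests and intervals do not allow for organs that share a mouse.

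Before LPS the level per length was compared as CPM per kilobase of exon (RPKM). Dbp was highest in brain (66.5 ± 11.0 RPKM, SD, n = 5) and in heart (84.4 ± 36.6, n = 5). In brain Nr1d1 (42.0 ± 11.9), Nr1d2 (36.6 ± 1.23) and Tef (30.7 ± 1.80) followed, and the library ranges of Dbp and Nr1d1 and of Nr1d1 and Nr1d2 overlapped while those of Nr1d2 and Tef did not. Then came Per1 (11.2 ± 2.399), Cry1 (9.66 ± 3.08), Clock (5.57 ± 0.562), Per2 (4.51 ± 1.18), Per3 (4.00 ± 1.26) and, lowest, Arntl (1.43 ± 0.421). From Per1 to Per3 each neighbor in this order overlapped with the next, and Arntl lay below every library of the others. In heart the order was Dbp, Nr1d1 (58.6 ± 19.7), Tef (44.5 ± 8.62), Nr1d2 (41.9 ± 6.01), Per1 (19.6 ± 8.76), Cry1 (17.5 ± 4.48), Per2 (8.39 ± 2.52), Clock (4.70 ± 0.669), Per3 (3.89 ± 0.617) and Arntl (0.536 ± 0.212). There the ranges of neighbors overlapped from Dbp to Nr1d2 and from Per1 to Per3, and again Arntl lay apart. In lung Tef led (90.7 ± 45.1, n = 4), its libraries overlapping with those of Nr1d2 (52.3 ± 34.1), Per1 (37.3 ± 13.5), Dbp (36.2 ± 11.2) and Nr1d1 (35.7 ± 21.6), and Arntl was again last (0.0614 ± 0.0926), below every library of the others.

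Between tissues at 0 hr, tested over 17730 genes, Arntl was lowest in lung, with a brain minus lung log2 difference of 5.66 (SE 0.94, edgeR adjusted p = 9.57e-05) and a lung minus heart difference of -4.23 (SE 0.91, adjusted p = 0.00101). Brain and heart did not pass for Arntl (log2 1.44, SE 0.61, adjusted p = 0.0575). Per1 was lowest in brain, with a brain minus lung difference of -1.78 (adjusted p = 0.000267) and a brain minus heart difference of -0.87 (adjusted p = 0.0274), and higher in lung than in heart (log2 0.91, adjusted p = 0.0254). Tef was higher in lung than in brain (brain minus lung log2 -1.57, adjusted p = 0.000279) and in heart (log2 1.00, adjusted p = 0.00801). Per2 and Cry1 were lower in brain than in heart (log2 -1.02 and -1.003), and Cry1 and Dbp were lower in lung than in heart (log2 -1.31 and -1.21). Dbp was higher in brain than in lung by 0.80 (adjusted p = 0.04996, lost in 10 of 14 fits without 1 library). In all, 4, 3 and 5 of the 10 genes differed between brain and lung, brain and heart, and lung and heart, against 64.3%, 54.8% and 61.1% of all genes. Without heart 0 hr replicate 3 the brain minus heart call was lost for Per1, Per2 and Cry1. In all, the Per1 call was lost in 4 of 14 fits without 1 library for brain minus heart (adjusted p of up to 0.136) and in 5 of 14 for lung minus heart (adjusted p of up to 0.104).

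**Figure D4:**
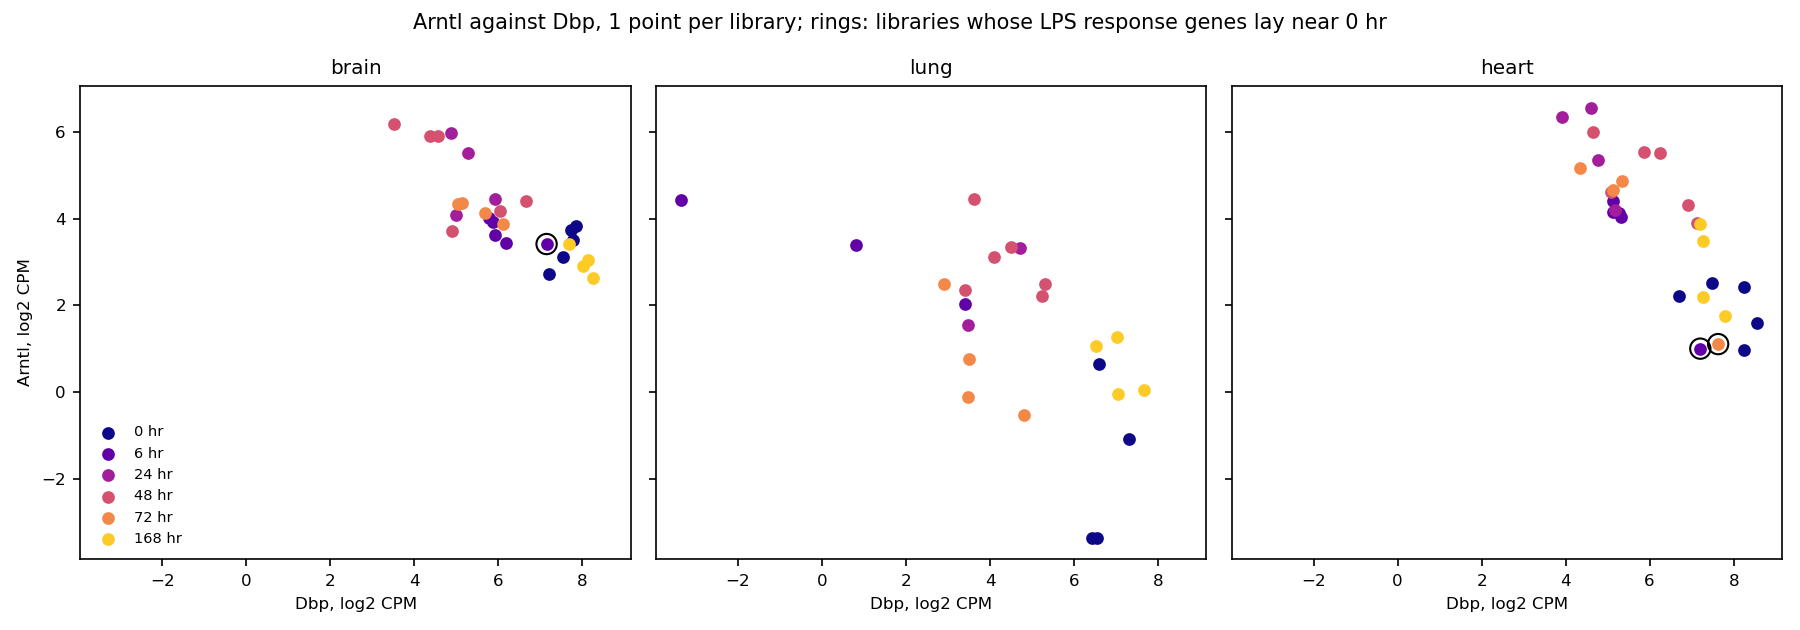
Arntl against Dbp, both as log2 CPM, with a point for each library, a color for each time and rings around the 3 libraries that went against their labels (lung 6 hr replicate 4 not drawn). Libraries at 0 and 168 hr lie at high Dbp and low Arntl, and those at 24 and 48 hr at lower Dbp and higher Arntl.

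The plot of Arntl against Dbp can be read as 1 value a library, the log2 level of Arntl minus that of Dbp, which in lung rests on the prior count where Arntl had no reads. It is given as a description, since both genes were tested singly. In brain it ran from -4.48 to -3.99 at 0 hr, from -3.73 to -1.76 at 6 hr, from -1.46 to 1.12 at 24 hr and from -5.61 to -4.27 at 168 hr. Every brain library from 6 to 72 hr lay above those at 0 hr, and of the 168 hr libraries 3 of 4 lay below them. In heart it ran from -7.26 to -4.49 at 0 hr, from -0.98 to 2.45 at 24 hr, from -3.21 to 1.35 at 48 hr and from -6.03 to -3.33 at 168 hr. The heart ranges at 6 and 72 hr reached down to -6.20 and -6.52 and up to -0.73 and 0.82. The lowest values there came from the libraries that went against their labels. In lung the value ran from -9.91 to -5.94 at 0 hr and from -7.63 to -5.47 at 168 hr, and the libraries of 24, 48 and 72 hr lay above 0 hr, from -5.33 to 0.84.

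Libraries of one time point also differed together. After time and library series were removed, Dbp and Arntl ran opposite in brain (Pearson r = -0.58, n = 28, permutation p = 0.00145, adjusted p = 0.00217; Spearman rho = -0.62, adjusted permutation p = 0.00159) and in heart (r = -0.80, n = 28, permutation p = 1e-05, the smallest that 100000 permutations can give, adjusted p = 9e-05; rho = -0.63, adjusted permutation p = 0.00159). Without the 2 libraries farthest from the median of Dbp, r was -0.66 in brain and -0.56 in heart. In heart these were 6 hr replicate 5 and 72 hr replicate 1, which went against their labels, and in brain they included 6 hr replicate 6. Dbp and Per3 ran together in brain (r = 0.62, adjusted permutation p = 0.000855; rho = 0.52, adjusted permutation p = 0.0103; r = 0.43 without 2) and heart (r = 0.66, adjusted permutation p = 0.00051; rho = 0.48, adjusted permutation p = 0.0149; r = 0.42 without 2). Dbp and Nr1d1 did so in heart (r = 0.65, adjusted permutation p = 0.00051; rho = 0.62, adjusted permutation p = 0.00159; r = 0.56 without 2), and in brain r was 0.30 (adjusted permutation p = 0.119) and rho 0.44 (adjusted permutation p = 0.0239). When the 3 libraries that went against their labels were left out before time and series were removed, the heart relation with Arntl (r = -0.38, n = 26, adjusted permutation p = 0.0721; rho = -0.44, adjusted permutation p = 0.0567) and that with Per3 (r = 0.26, adjusted permutation p = 0.19; rho = 0.28, adjusted permutation p = 0.166) no longer passed, so both rest on those libraries. For Nr1d1 in heart r was then 0.53 (adjusted permutation p = 0.00952) and rho 0.42 (adjusted permutation p = 0.0567). In brain r was -0.64 for Arntl (n = 27, adjusted permutation p = 0.00333; rho = -0.74, adjusted permutation p = 0.00072) and 0.57 for Per3 (adjusted permutation p = 0.00507; rho = 0.50, adjusted permutation p = 0.0291).

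In lung r was -0.72, -0.66 and -0.52 for Arntl, Nr1d1 and Per3 with Dbp (n = 24, adjusted permutation p = 0.00133, 0.00428 and 0.0156; rho = -0.59, -0.32 and -0.30, adjusted permutation p = 0.00648, 0.141 and 0.151). Without lung 6 hr replicates 2 and 4 these r were -0.35, -0.11 and 0.19, so the relations in lung rest on those libraries. In all, 9 relations were computed, and libraries share the scaling by total reads. In every tissue the permutations shuffled values over all libraries after time and series had been removed. They make no allowance for those fitted terms, so the permutation p-values may be too small.

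Among 9882 genes that averaged 1 or more on the log2 CPM scale in every tissue, those most like Dbp over all libraries of a tissue (lowest of the 3 tissues' Pearson r, over 28, 24 and 28 libraries) were Megf6 (0.83), Anapc11 (0.81), Tgfb3 (0.78), Tril (0.78) and Hey1 (0.77), and Tef stood at rank 222 (0.58). For Arntl they were Nfil3 (0.77), Serpina3n (0.77), Nfkbiz (0.77), Tmem38b (0.76) and Tnfaip3 (0.74). Dbp itself stood at rank 9541 for Arntl, with an r of -0.84 in brain and heart and -0.71 in lung. These r are descriptions over libraries that share time points and total reads. Nfil3 encodes the D-box repressor, and Nfkbiz and Tnfaip3 are targets and regulators of NF-kappaB.

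Among 20 other clock genes, of which 20 were tested in brain and 19 in lung and heart, 3 rose and 0 fell in brain at 6 hr, 2 rose and 1 fell in lung, and 6 rose and 2 fell in heart, where 22.4% of all genes rose and 20.3% fell (brain 4.21% and 2.23%, lung 2.56% and 2.27%). At 24 hr 2 rose and 1 fell in brain, 0 and 0 in lung and 3 and 3 in heart (all genes 6.52% and 4.66%, 0.363% and 0.0117%, and 9.07% and 7.11%), and at 48 hr 1 and 3 in brain, 1 and 0 in lung and 0 and 0 in heart (all genes 8.11% and 6.12%, 0.428% and 0.17%, and 3.08% and 1.11%). None was called at 72 or 168 hr by edgeR. At 72 hr 5 genes of the list in brain, 3 in lung and 5 in heart had an unadjusted p under 0.05, DESeq2 called 1, 1 and 0 of them and limma-voom 0, and at 168 hr the unadjusted counts were 1, 1 and 0 with 0 calls by either tool. Where edgeR called 0 earlier, 3 had an unadjusted p under 0.05 in lung at 24 hr (0 by either tool) and 5 in heart at 48 hr (3 by DESeq2 and 0 by limma-voom). Nfil3 rose at 6 hr in brain (log2 2.07), lung (log2 4.99) and heart (log2 3.34). Noct (nocturnin), whose RNA cycles in many tissues, rose as well (log2 1.73, 3.24 and 3.84). Noct ranged from 25.8 to 48.1 CPM at 0 hr and from 30.7 to 301 CPM at 6 hr in brain, and from 23.2 to 39.6 CPM and from 19.1 to 829.4 CPM in heart. In lung it ranged from 6.19 to 9.65 CPM at 0 hr and was at 27.6, 1.27, 163 and 0 CPM at 6 hr, so that 2 of 4 libraries lay below every 0 hr library. Timeless rose in brain (log2 1.71) and heart (log2 1.53), and Bhlhe41, a repressor that competes for E-boxes, fell in lung (log2 -3.18) and heart (log2 -1.29). The low ends of the 6 hr ranges of brain and heart are the libraries that went against their labels.

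Dbp lies at chr7:45705088-45710203 (mm10, plus strand), and 539 of its exon bases (18.0%) overlap with exons of Sphk2 on the other strand, so reads of Sphk2 there may be left out of or counted to Dbp, depending on whether strand was used. Tef shares 193 exon bases (2.45%) with Gm17597 and Arntl 33 (0.439%) with Gm45355, both antisense. The other members have no exon overlap with another gene.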

How the data were processed

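Gene-level read counts of HA-immunoprecipitated, ribosome-bound RNA were deposited by the authors, who aligned reads with STAR 2.4.2 to mm10 and counted them with HTSeq 0.6.1. The counts were not normalized. Runs of one library were summed (217 runs, 98 libraries, lowest r between runs 0.958), 18 libraries with under 3% of reads on genes were left out, and rows that name no gene, which held the rest of the reads (genes took 53.4 to 70.0% in brain, 43.7 to 68.9% in heart and 3.40 to 61.0% in lung), were kept out of totals and tests.

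Each tissue was fitted with edgeR 4.0.16 (R 4.3.3; TMM, filterByExpr, quasi-likelihood, two-sided) on time and library series (read from file names, since batches are not labelled), with 6 time points in one fit and Benjamini-Hochberg adjustment over all genes tested. Levels are TMM-scaled CPM, with a prior count of 2 on the log2 scale. A count of 0 allows up to 3 counts, a limit that covers counting error only, whereas the 95% intervals come from the edgeR SE and so from the spread between libraries. DESeq2 1.42.0, limma-voom 3.58.1, other scalings, filters, library sets, a replicate block and leaving out each library were tried as alternatives, and leaving out the 3 libraries that went against their labels, and those with under 10% of reads on genes, was added after seeing the data. Same-numbered libraries were checked for shared deviations from their group means. The scripts were tested on simulated data.

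The genes, lists and comparisons were chosen with earlier results of these data known. All 10 genes are named. Of 20 other clock genes, those called in at least 2 tissues at 6 hr or in the mean of 24 to 168 hr are named, and the 5 genes most like Dbp and Arntl are named by the lowest of 3 tissue values of r. Nothing says whether replicates of one time came from separate litters or days, or which libraries share a mouse. The p-values measure the spread between these libraries. The clock time of harvest is not given in the sources used here, and strand use in counting is not stated.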

Additional observations from a re-analysis of the deposited data

Results flagged for a closer look

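In 170 groups of 4 to 6 libraries (10 clock genes), the highest or lowest library was tested for its gap to the nearest other, as a share of the group's range, and 18 gaps passed Dixon's 95% value, where chance gives about 8.5. The libraries that went against their labels gave 4 of them: heart 6 hr replicate 5 for Arntl (1.91 CPM against 16.4 to 21.0, gap 0.896), Per3 (gap 0.764) and Dbp (147 CPM against 34.6 to 40.0, gap 0.9), and heart 72 hr replicate 1 for Arntl (2.06 CPM against 25.2 to 35.6, gap 0.877). Lung 6 hr replicate 4, of 284457 reads, stood apart by having no read of Clock (gap 0.969), Cry1 (gap 0.83) and Nr1d2 (gap 0.952), and lung 6 hr replicate 3 was the one library with reads of Per2 (gap 1).

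The other gaps were Clock in heart 0 hr replicate 4 (0.817), Per1 in brain 72 hr replicate 1 (0.83), Per3 in brain 168 hr replicate 2 (0.976), Cry1 in lung 0 hr replicate 4 (60.5 CPM against 14.9 to 17.1, 0.905), Nr1d1 in brain 24 hr replicate 1 (53.7 CPM against 113 to 131, 0.832), lung 168 hr replicate 1 (0.896) and heart 168 hr replicate 4 (0.836), Nr1d2 in heart 168 hr replicate 1 (0.841), Dbp in heart 168 hr replicate 1 (0.87) and Tef in lung 48 hr replicate 4 (65.5 CPM against 319 to 781, 0.639).

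The response at 6 hr differed between tissues by the edgeR test of the difference itself for Arntl (brain minus lung -7.08, adjusted p = 0.000936, and lung minus heart 5.79, adjusted p = 0.00403) and Nr1d2 (brain minus lung 1.83, adjusted p = 0.0149, and lung minus heart -2.25, adjusted p = 0.00403).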

How the results depend on the processing

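No clock gene's called fold change reversed under any alternative. Counts of clock genes called that moved by over 1.5 times, with edgeR unless named, were as follows (main count first). In brain, 6 hr went from 2 to 1 with no low-count filter, 0 without the series term, 1 with the replicate block and 1 with all libraries, 24 hr from 3 to 5 with no filter, 72 hr from 3 to 1 with all libraries, and the mean of 24 to 168 hr from 2 to 1 by limma-voom. In heart, 48 hr went from 1 to 2 by DESeq2, 0 by limma-voom, 2 with no filter, 2 without the series term and 2 without the libraries that went against their labels. Heart 72 hr went from 0 to 2 by DESeq2, 3 with no filter and 5 without those libraries, and the mean from 0 to 2 by DESeq2, 4 with no filter, 2 without the series term, 1 with all libraries and 4 without those libraries. In lung, 6 hr went from 3 to 1 at 10% or more of reads on genes. Lung 48 hr went from 0 to 3 by DESeq2, 2 by limma-voom, 2 with no filter, 1 without the series term and 2 at 10% or more. Lung 72 hr went from 0 to 3 by DESeq2, 1 by limma-voom, 1 with no filter, 1 at 1000000 or more reads and 3 at 10% or more, and the mean from 0 to 1 by DESeq2 and 1 at 10% or more. The brain minus lung response at 6 hr went from 2 to 5 by DESeq2, 5 by limma-voom, 4 with no filter, 1 with the replicate block and 1 at 10% or more. At 0 hr, brain minus lung went from 4 to 2 with all libraries, brain minus heart from 3 to 5 with the replicate block, and lung minus heart from 5 to 3 with all libraries. The other counts that differed did so by 1 gene, among them brain 24 hr, from 3 to 2 by limma-voom and with the replicate block (Arntl lost, adjusted p = 0.0639 with the block). The causes were not tested. In lung, at 1000000 or more reads, r of Dbp with Arntl, Nr1d1 and Per3 was -0.39, -0.14 and -0.065. In heart, without the libraries that went against their labels, r of Dbp with Arntl was -0.38 and with Per3 0.26.

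Without 1 library at a time, the counts ran from 0 to 3, 2 to 3, 4 to 5, 3 to 3, 0 to 0 and 0 to 2 in brain (6, 24, 48, 72, 168 hr and the mean), from 5 to 6, 3 to 6, 1 to 2, 0 to 4, 0 to 0 and 0 to 2 in heart, and from 1 to 5, 0 to 0, 0 to 2, 0 to 2, 0 to 0 and 0 to 0 in lung. At 6 hr the tissue differences ran from 1 to 6 (brain minus lung), 0 to 0 (brain minus heart) and 2 to 6 (lung minus heart), and at 0 hr from 3 to 6, 0 to 5 and 4 to 6. The lone library that this leaves in lung at 24 hr is taken to vary like the other groups.

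Within a tissue, same-numbered libraries of 0 hr and a later time were mostly not alike in brain and heart. Their r was -0.69 to 0.46 in brain (4 of 20 pairs over 0.1) and -0.34 to 0.34 in heart (3 of 21). In lung it was -0.32 to 0.76 (8 of 16), so the check does not settle whether replicate numbers pair the samples there. The replicate block is given as an alternative only. Across organs, same-numbered libraries at 0 hr had an r over 0.1 in 1 of 4 pairs (brain with lung), 2 of 5 (brain with heart) and 0 of 4 (lung with heart), and at 6 hr in 0, 4 and 1 of 4. At 48 hr all 6 pairs and at 168 hr all 4 pairs of each 2 organs were over 0.1 (r of 0.17 to 0.57 and of 0.11 to 0.44), as were all 4 of brain with heart at 24 hr (r of 0.16 to 0.49), and whether they share a mouse is not stated. No test between organs was made at 48 or 168 hr. Those at 0, 6 and 24 hr took libraries of different organs as independent, so any shared mouse was not modelled. Under the block, all genes called went from 2151 to 839 in brain and from 2594 to 1615 in heart at 24 hr, and from 671 to 209 in heart at 48 hr.

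Over the alternatives, the counts of all genes called that moved by over 1.5 times included that of brain at 6 hr, which went from 1238 to 2760 without the library labelled replicate 6, and that at 72 hr, which ran from 678 to between 372 and 1173. In heart, a main count of 2594 at 24 hr ran between 1615 and 5300, 671 at 48 hr between 209 and 1544, and 44 at 72 hr between 0 and 472. In lung, 824 at 6 hr ran between 186 and 2302, 102 at 48 hr between 64 and 509, and 33 at 72 hr between 20 and 330. Of the genes called in lung at 6 hr 52.9% were higher, and 67.7% by DESeq2 and 66.1% by RLE scaling. Depth is a limit in lung at 6 hr, where 1 of 4 libraries held 284457 reads.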
